A study of Mus musculus with 10 samples.

Results

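Spleen samples of mice given CD4+ T cells with an oncogenic form of Vav1 were compared with those of mice given such cells with GFP alone. The comparison took the 6 spleen arrays of a series of 10, namely the 2 whose titles name GFP and the 4 whose titles name oncogenic Vav1, and used all genes with 1 probe set each. Per the labels, the animals were of strain C57BL/10 with the genotype WT + GFP or WT + Oncogenic Vav1. CD4+ T cells were transduced with either construct and put into immunocompromised mice, and the tissue was taken 6 months later. Each spleen array carries the name of a different animal (CTL2 and CTL4 for GFP, ONCO1 to ONCO4 for oncogenic Vav1). The other 4 arrays, 2 per construct, came from lymph nodes and enter only where a spleen difference is set against that in the lymph node. The vector, the Vav1 mutation, the strain of the recipients and the lymphocytes they still had are not given in the sources used here. The series concerns VAV1 mutations of cancer and T cell lymphoma, and the comparison asks which transcripts of the spleen differed between both constructs.

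Vav1 is a guanine nucleotide exchange factor that acts below the T cell receptor. It also works as an adaptor for phospholipase C gamma and calcium signalling. The spleen filters blood through its red pulp, which is rich in macrophages and can make red and myeloid cells, and its white pulp holds B cell follicles and T cell zones.

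Although the labels name the samples spleen CD4+ T cells, other cell types contributed abundant transcripts to all 6 arrays. Cd79a, which B cells need for their antigen receptor, lay between percentiles 97.6 and 99.5 of the probe sets of an array, and the macrophage lysozyme Lyz2 between 99.6 and 99.9. The T cell genes Cd3e and Cd4 lay between percentiles 93.2 and 96.8 and between 80.1 and 91.3. Whether whole tissue or sorted cells were read is not clear from the labels. In such mixed samples, fewer cells of a type and less RNA per cell cannot be told apart. The mean log2 level of the T cell genes was 7.14 to 7.15 on the GFP and 7.45 to 7.69 on the oncogenic Vav1 arrays, and that of the neutrophil genes 5.74 to 5.75 and 7.05 to 7.21. Oncogenic Vav1 replicate 3 stood apart in the 3 Y-linked genes measured, with a mean level of 5.82. That mean was 7.99 to 8.12 on the rest of its group and 8.89 to 9.02 on the GFP arrays. Its animal per the labels, ONCO3, also gave oncogenic Vav1 lymph node replicate 2, where the mean was 8.60. The other lymph node arrays read 8.08 to 8.62. Why the arrays labelled ONCO3 differ was not tested. Vav1 read 9.63 and 9.83 on the GFP arrays and 10.31, 10.00, 10.17 and 10.23 on the oncogenic Vav1 arrays. The values of both groups lay apart, and Vav1 rose (log2 difference 0.45, SE 0.11, adjusted p = 0.0095), but it did not pass without GFP replicate 1 (0.35, adjusted p = 0.1), in the fit over all 10 arrays (0.45, adjusted p = 0.13) or after another quantile normalization (0.28, adjusted p = 0.062). Whether the probes read the introduced Vav1 is not given in the sources used here.

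All values are log2 levels, and a log2 difference is the mean of the oncogenic Vav1 arrays minus that of the GFP arrays, with its standard error (SE), n = 2 GFP and 4 oncogenic Vav1 arrays. A gene rose or fell if its Benjamini-Hochberg adjusted p by limma was under 0.05. Of 12895 genes tested, 5040 changed (39.1%), 3188 upwards (24.7%) and 1852 downwards (14.4%). The groups of arrays did not overlap for 7267 genes (56.4%). At least a 2-fold change was seen in 940 of the changed genes and at least a 4-fold change in 149, and the median log2 difference over all genes tested was 0.01. Rises made up 63.3% of the changes as deposited and 46.7% after another quantile normalization, under which the overall median was -0.08 (2518 rises and 2876 falls).

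Among the arrays left out in turn, GFP replicate 1 moved the count of changes most. It was 2881 without GFP replicate 1 (2023 rises and 858 falls), 3679 without GFP replicate 2 (2636 and 1043) and between 3863 and 5402 without each oncogenic Vav1 array. In 53.3% of the genes that rose, oncogenic Vav1 replicate 3 had the lowest value of its group. Replicate 4 had it in 31.6%, replicate 2 in 9.79% and replicate 1 in 5.3%. Over all 12895 genes tested, replicate 3 was the lowest of its group in 4169. The intronic control probe sets, which read background and unspliced RNA, had a median of 5.87 and 5.69 on the GFP arrays and 5.43, 5.45, 5.55 and 5.44 on the oncogenic Vav1 arrays. This level lay apart between the groups and cannot be told apart from the construct with these arrays. With it as a covariate, 114 genes changed, 111 of them also among the 5040.

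**Figure D1:**
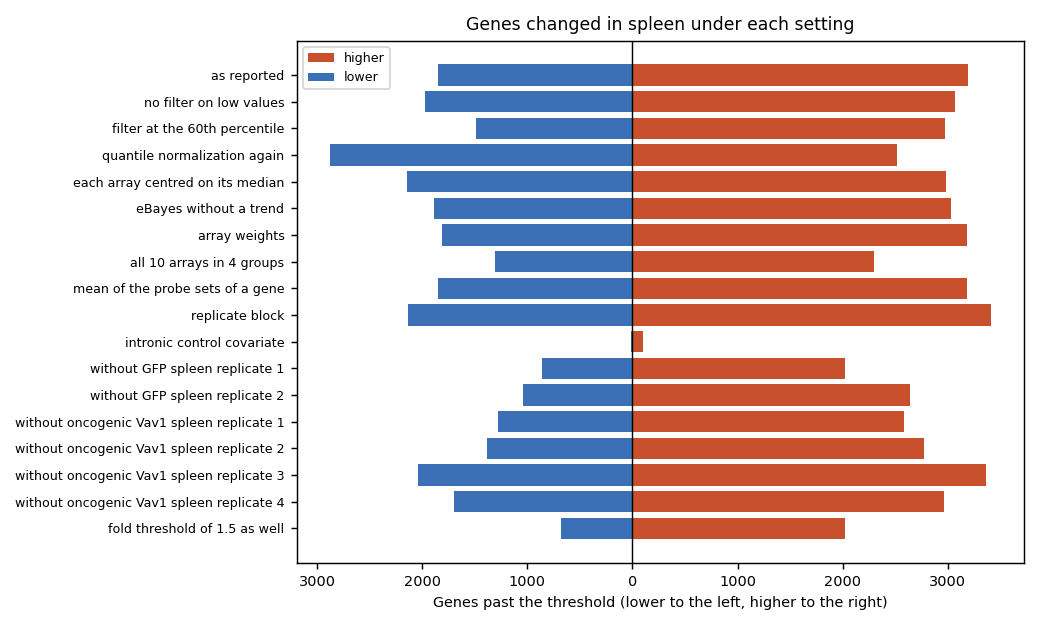
The bars give the number of genes that rose (right) and fell (left) with oncogenic Vav1 in spleen, as reported and under each other setting. The count of falls drops from 1852 to 858 without GFP replicate 1, and few genes pass with the intronic control level as a covariate (97 rises and 17 falls).

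The 15 largest rises outside the T cell, neutrophil and chemokine genes included the metalloprotease gene Adamdec1, the interferon-induced Iigp1, the cyclooxygenase gene Ptgs2 and the deaminase gene Apobec3. They were chosen among genes whose groups of arrays do not overlap, so the lack of overlap is not a separate result. Adamdec1 read 4.95 and 5.08 on the GFP arrays and 8.69, 8.72, 8.69 and 8.50 on the oncogenic Vav1 arrays. Adamdec1, a secreted metalloprotease made by macrophages and dendritic cells, was near background on both GFP arrays (below the 40th percentile of each array) and lay within 0.22 of a log2 unit among the oncogenic Vav1 arrays (log2 difference 3.63, SE 0.13, adjusted p = 1.8e-08). Iigp1 read 6.38 and 6.94 on the GFP arrays and 10.48, 10.15, 9.51 and 10.32 on the oncogenic Vav1 arrays. This interferon-induced GTPase, which attacks the vacuoles of intracellular parasites, was lowest on oncogenic Vav1 replicate 3 within its group, and the groups did not overlap (log2 difference 3.46, SE 0.24, adjusted p = 3.2e-06). Ptgs2 read 4.19 and 4.47 on the GFP arrays and 8.34, 7.80, 6.46 and 8.15 on the oncogenic Vav1 arrays. Ptgs2, the inducible cyclooxygenase of prostaglandin synthesis, was the least even of the 3 within the oncogenic Vav1 group, with replicate 3 again the lowest (log2 difference 3.36, SE 0.41, adjusted p = 1e-04). Apobec3 read 8.27 and 7.92 on the GFP arrays and 10.95, 10.82, 11.09 and 10.83 on the oncogenic Vav1 arrays. Apobec3 is a cytidine deaminase that restricts retroviruses, and its values lay within 0.27 of a log2 unit on the oncogenic Vav1 arrays (log2 difference 2.83, SE 0.12, adjusted p = 9.3e-08).

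Chil3 (3.39) and Mpo (2.81) were left out of the 15 largest rises because they are on the list of neutrophil genes. Both are given with the monocyte and progenitor markers. The other 11 of the 15 rises ran from 2.77 to 3.31. They were the apolipoprotein L genes Apol11a (3.31, SE 0.19) and Apol10a (2.98, SE 0.27), the myeloid surface genes Slamf8 (3.26, SE 0.23) and Ms4a6d (3.22, SE 0.19), the secreted matrix protein F-spondin (Spon1; 3.25, SE 0.16), the proton pump subunit Atp6v0d2 (3.20, SE 0.36), the fatty acid carrier Fabp5 (3.17, SE 0.25), the glutathione transferase Gstt1 (2.90, SE 0.30), the neuropeptide receptor Qrfpr (2.85, SE 0.15), the ubiquitin-like modifier Ubd (2.83, SE 0.24) and the protease inhibitor Serpina3f (2.77, SE 0.15). In the GFP spleen, Adamdec1, Ptgs2, Apol11a, Apol10a, Slamf8, Ms4a6d, Atp6v0d2, Qrfpr and Ubd were near background (as above), so their level there, and with it the size of the rise, is poorly measured. The same holds for Acod1, Acp2, Bmpr1a, Chil3, Clec5a, Ctsg, Fzd7, Mmp3, Mpo, Ms4a3, Procr and Slfn4, whose values follow. All 15 rises kept their call without each array in turn. With the intronic control level as a covariate, Adamdec1, Iigp1, Apol11a, Spon1, Ms4a6d, Qrfpr, Apobec3 and Serpina3f still passed.

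Among the 15 largest falls, also chosen from genes whose groups do not overlap, were genes of fat, B cells, dendritic cells and the germ line. Car3 read 8.32 and 7.21 on the GFP arrays and 4.90, 4.17, 3.90 and 5.03 on the oncogenic Vav1 arrays. Car3, a carbonic anhydrase of fat and muscle, was near background on the oncogenic Vav1 arrays, and the groups did not overlap (log2 difference -3.27, SE 0.35, adjusted p = 5e-05). Msh5 read 7.61 and 7.43 on the GFP arrays and 5.37, 5.21, 5.24 and 5.38 on the oncogenic Vav1 arrays. Both groups were tight for this meiotic recombination gene, which was near background on the oncogenic Vav1 arrays (log2 difference -2.22, SE 0.15, adjusted p = 2.6e-06). Col6a4 read 7.57 and 7.92 on the GFP arrays and 5.60, 5.36, 5.68 and 5.88 on the oncogenic Vav1 arrays. The collagen VI chain Col6a4 fell without overlap (log2 difference -2.11, SE 0.18, adjusted p = 1.1e-05). Kdm5d stood at 8.40 and 8.31 on the GFP arrays and 7.04, 7.07, 4.97 and 7.06 on the oncogenic Vav1 arrays. The low array for this Y-linked histone demethylase was oncogenic Vav1 replicate 3, and the fall (log2 difference -1.82, SE 0.49, adjusted p = 0.013) did not pass without GFP replicate 1 (-1.78, adjusted p = 0.095) or GFP replicate 2 (-1.87, adjusted p = 0.07). Without oncogenic Vav1 replicate 3 it passed (-1.30, adjusted p = 1e-05).

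Cd209a, a lectin of monocyte-derived dendritic cells, fell (-1.77, SE 0.21), as did Igfbp5 (-1.75, SE 0.26), a binding protein for insulin-like growth factors. The remaining falls were in the fat hormone gene Adipoq (-2.17, SE 0.30), the B cell surface genes Cr2 (-1.94, SE 0.19) and Fcer2a (-1.78, SE 0.11), Ly6k (-1.83, SE 0.15), the ubiquitin ligase Mid1 (-1.80, SE 0.14), the ganglioside GD3 synthase St8sia1 (-1.78, SE 0.21), the chromatin factor Cecr2 (-1.76, SE 0.20), Dapl1 (-1.73, SE 0.25) and the XK-related gene Xkrx (-1.72, SE 0.20). Of the 15 falls, Kdm5d alone lost its call when an array was left out. Adipoq, Cecr2 and Xkrx were near background on the oncogenic Vav1 arrays. Msh5, Col6a4, Ly6k and Fcer2a still passed with the intronic control level as a covariate. The mean level of the fat cell markers, which include Car3 and Adipoq, was 6.01 to 6.34 on the GFP and 5.19 to 5.35 on the oncogenic Vav1 arrays. The part of fat tissue in these falls was not tested.

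**Figure D2:**
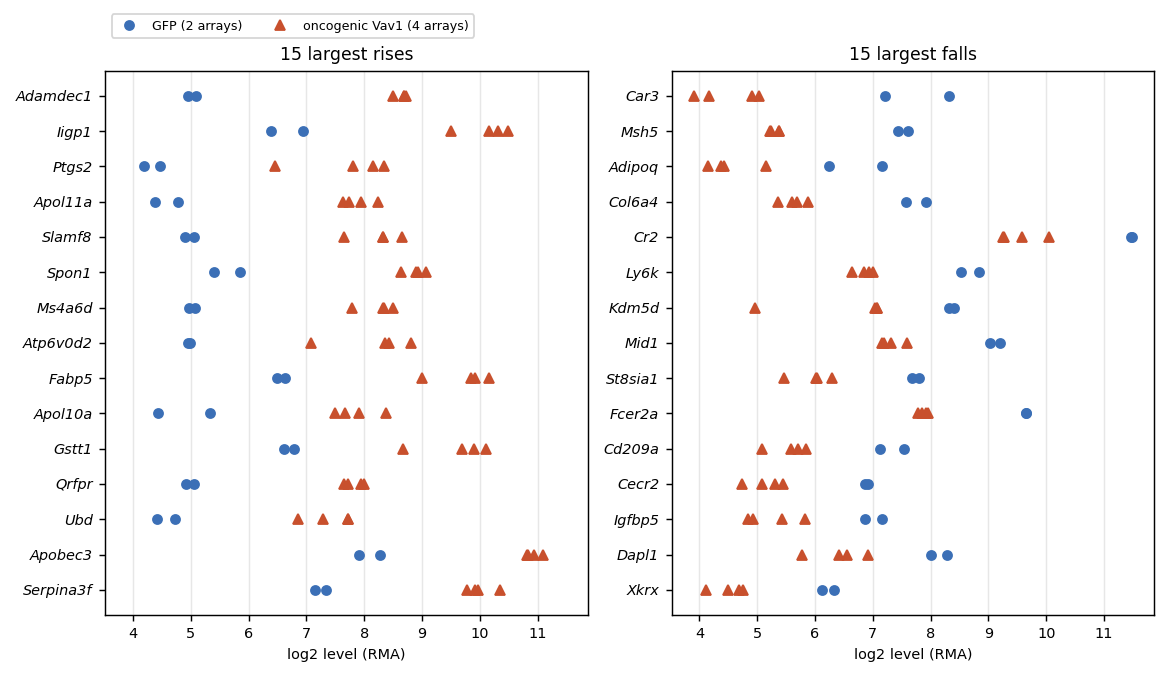
Points give the log2 level of each of the 15 largest rises (left) and falls (right) on the 2 GFP arrays (circles) and the 4 oncogenic Vav1 arrays (triangles) of the spleen. No gene overlaps between the groups, since that was part of the choice. Within the oncogenic Vav1 group, Ptgs2, Atp6v0d2 and Kdm5d spread the most, each with replicate 3 lowest.

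The pathway lists are described by the number of members that rose or fell and by the median log2 difference over the members tested, beside 24.7% and 14.4% over all genes tested and a median of 0.01. Counts without single arrays are given where they move by over 1.5 times. Most named list members were chosen as changed genes of large difference, and 4981 of the 5040 changed genes did not overlap between the groups. For such genes, groups that lay apart are therefore not a separate result. Where a list is given with no fall, none of its members was lower at an unadjusted p under 0.05 by limma, except 1 eicosanoid, 2 hypoxia and 4 clock genes. Another quantile normalization turned the sign of the medians of the class II, Ras, Gimap and Schlafen, red pulp macrophage and endothelial lists. The filter at the 60th percentile turned those of 6 lists (Ras, Wnt, clock, dendritic cell, NK cell and eosinophil). With the intronic control level as a covariate, at most 4 members of any list passed in 1 direction, and 11 of 70 medians changed sign, 5 of them of size 0.2 or more as reported (red cell, haem synthesis, pentose phosphate, dendritic cell and NK cell). Under another quantile normalization, counts of the lists described here that moved by over 1.5 times and by at least 4 genes were the falls of ribosomal proteins (7 to 20), collagens (11 to 17), Ras (6 to 11) and apoptosis genes (3 to 10) and the rises of citrate cycle (12 to 7), fatty acid (11 to 7) and Ras genes (7 to 3). In the fit over all 10 arrays they were the rises of class I loading (12 to 7), TNF superfamily (10 to 6), Ras (7 to 2), apoptosis (8 to 4), transcription factor (14 to 5) and red cell genes (8 to 0) and the falls of B cell receptor (13 to 7) and ribosomal protein genes (7 to 1). The falls of ribosomal proteins were also 2 without the variance trend, and those of collagens 7 with the filter at the 60th percentile. Markers of B cells, monocytes, myeloid precursors and neutrophils moved with the construct, and their part in the pathway counts was not tested. Some genes named below are also on other lists: Il1r2, Csf3r and Hp (neutrophil genes), and Ccr2 and Xcr1 (chemokine genes). Fasl, Eomes, Ncr1, Klrb1c and Lilrb4a are also on the list of T cell, cytotoxic and inhibitory receptor genes. They are not results apart from those lists.

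**Figure D3:**
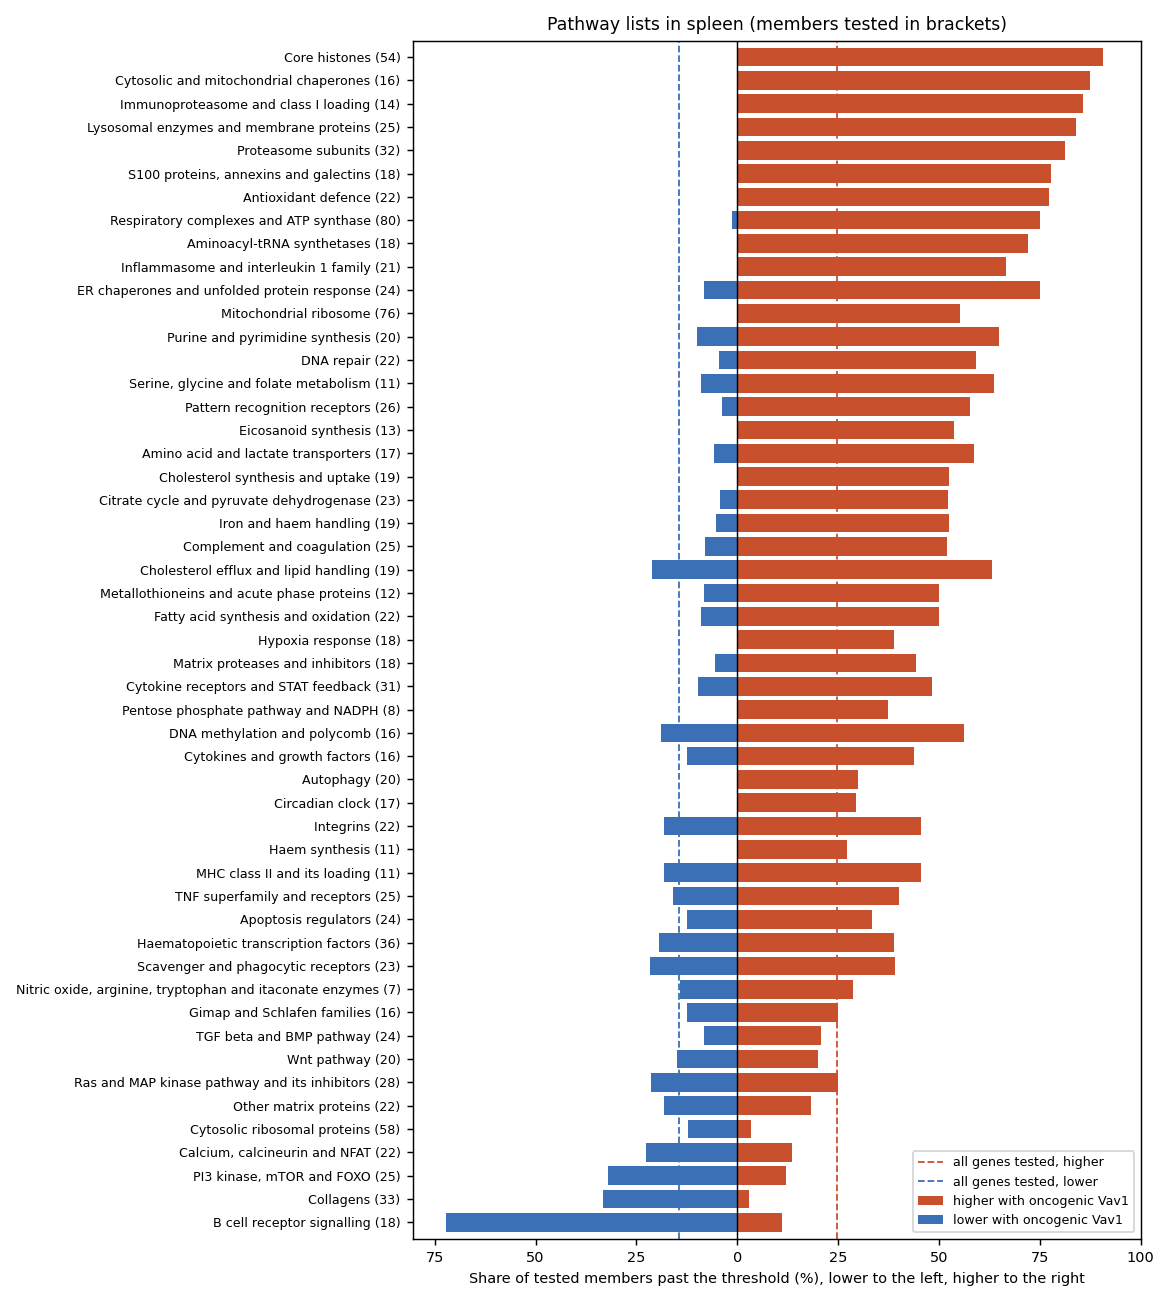
Each bar gives the share of the tested members of a pathway list that rose (right) or fell (left) with oncogenic Vav1, and dashed lines give the share over all genes tested (24.7% and 14.4%). Core histones head the list with 49 of 54 members higher, and B cell receptor signalling closes it with 13 of 18 lower.

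Chaperones of the endoplasmic reticulum (ER) fold secreted and membrane proteins, and their genes are induced when unfolded protein builds up there. Of the 24 tested members, 18 rose and 2 fell, with a median of 0.59. Pdia3 read 9.81 and 10.02 on the GFP arrays and 11.18, 11.05, 10.92 and 11.08 on the oncogenic Vav1 arrays. Calr read 11.02 and 11.24 on the GFP arrays and 12.08, 11.98, 11.86 and 12.02 on the oncogenic Vav1 arrays. Both genes, a disulfide isomerase and the lectin chaperone calreticulin, were higher on every oncogenic Vav1 array than on either GFP array (Pdia3 log2 difference 1.15, SE 0.10, adjusted p = 1.8e-05, Calr log2 difference 0.86, SE 0.10, adjusted p = 7.3e-05). The cochaperone Sdf2l1 (0.88, SE 0.12), the membrane lectin Canx (0.72, SE 0.11), the ATPase Hspa5 (0.66, SE 0.11) and the disulfide isomerase Pdia6 (0.96, SE 0.17) rose as well. With the intronic control level as a covariate, Pdia6 took the other sign (-0.14, adjusted p = 0.8). The count of falls was 1 without GFP replicate 1.

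Promoters are shown because several of these genes hold the ER stress response element, which here means CCAAT, a gap of 9 bases and CCACG on either strand. This element and those named later were searched on both strands of the same windows, and matches of different elements may overlap. In RefSeq promoters of build GRCm38.p6, from 250 bases before to 50 after the gene start, the element was found in 8 of the 22 list members with a promoter (36.4%). Over the tested genes with a promoter it was found in 17 of 10434 (0.163%), and over all promoters in 39 of 32851 (0.119%). Of the 8 genes, 7 rose and 1 fell, while 17 of the 22 members with a promoter rose. The promoter of Hspa5 lies at chr2:34771840-34772139 on the plus strand, with both parts of the element in capitals.
Hspa5: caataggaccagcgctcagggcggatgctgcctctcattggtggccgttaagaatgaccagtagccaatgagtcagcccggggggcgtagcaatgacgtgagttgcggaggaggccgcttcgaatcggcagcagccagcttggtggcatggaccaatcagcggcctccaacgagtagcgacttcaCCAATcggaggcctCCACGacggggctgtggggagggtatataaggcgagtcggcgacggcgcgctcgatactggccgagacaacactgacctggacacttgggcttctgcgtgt
The same element is given for other members with 10 bases on each side, read from CCAAT to CCACG.
Calr: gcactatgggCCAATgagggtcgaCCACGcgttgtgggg
Canx: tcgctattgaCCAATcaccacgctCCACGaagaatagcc
Derl3: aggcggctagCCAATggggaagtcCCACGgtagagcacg
Dnajc3: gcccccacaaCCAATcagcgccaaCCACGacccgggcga
Pdia6: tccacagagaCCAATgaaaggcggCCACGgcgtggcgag
Syvn1: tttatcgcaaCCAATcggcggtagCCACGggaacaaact
The windows lie at chr8:84847065-84847103 (plus strand) for Calr, chr11:50325790-50325828 (minus strand) for Canx, chr10:75893232-75893270 (minus strand) for Derl3, chr14:118937817-118937855 (plus strand) for Dnajc3, chr12:17266481-17266519 (plus strand) for Pdia6 and chr19:6046522-6046560 (plus strand) for Syvn1. The spacer differs between them while both capital parts are those searched for. Hsp90b1 holds the element at 2 places. Derl3, Dnajc3, Syvn1 and Hsp90b1 were named for their promoters after their values were seen, and had log2 differences of 0.71, 0.62, -0.41 and 0.35. Syvn1, a ubiquitin ligase of ER-associated degradation, fell (log2 difference -0.41, SE 0.11, adjusted p = 0.014), though not without GFP replicate 1 (-0.30, adjusted p = 0.13) or in the fit over all 10 arrays (-0.41, adjusted p = 0.18). Hsp90b1 did not pass without GFP replicate 1 (0.23, adjusted p = 0.13) or after another quantile normalization (0.13, adjusted p = 0.25). A match of letters is a description, and binding was not measured.

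In the cytosol and mitochondria, 14 of 16 chaperone genes rose and none of the list fell (median 0.56). The count of rises was 7 without GFP replicate 1. Tcp1 (0.79, SE 0.13) and Cct3 (0.73, SE 0.11), subunits of the ring that folds actin and tubulin, rose and kept their call without each array. The heat shock gene Hspa1a, the first of the list, did not pass (0.13, SE 0.13).

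The proteasome degrades ubiquitin-tagged proteins, and 26 of its 32 subunits rose and none fell, with a median of 0.67. Psma7 read 8.33 and 8.80 on the GFP arrays and 9.86, 9.73, 9.75 and 9.73 on the oncogenic Vav1 arrays. Psmb6 read 8.60 and 8.96 on the GFP arrays and 9.81, 9.80, 9.83 and 9.60 on the oncogenic Vav1 arrays. The groups lay apart for both (Psma7 log2 difference 1.20, SE 0.13, adjusted p = 5.3e-05, Psmb6 log2 difference 0.98, SE 0.12, adjusted p = 0.00014). Psmd2 (0.96, SE 0.12), Psma5 (0.95, SE 0.11), Psmb4 (0.93, SE 0.14) and Psma1 (0.82, SE 0.12) rose too. Of the 14 genes of the immunoproteasome and of peptide loading on class I molecules, 12 rose (median 0.59). The catalytic subunit Psmb9 (1.5, SE 0.12), the non-classical class I gene H2-T23 (1.47, SE 0.11), the peptide pump subunit Tap1 (1.00, SE 0.10), H2-D1 (0.95, SE 0.11) and Psmb10 (0.83, SE 0.11) led them. The STAT-type element TTCNNNGAA was present in 1 of 12 promoters of this list (8.33%), near the 8.47% of all tested genes.

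Class II molecules present peptides to CD4+ T cells, and their genes went both ways, with 5 of 11 up and 2 down (median 0.14, and -0.03 after another quantile normalization; 1 down without GFP replicate 1). The peptide exchange subunit H2-DMa (1.03, SE 0.11), H2-Eb2 (0.99, SE 0.15), the class II chain H2-Ab1 (0.82, SE 0.10) and the protease Ctss (0.82, SE 0.13) rose. H2-Ob read 11.43 and 11.76 on the GFP arrays and 10.82, 10.80, 10.71 and 10.86 on the oncogenic Vav1 arrays. H2-Ob, a B cell chain that restrains H2-DM, was lower on every oncogenic Vav1 array (log2 difference -0.80, SE 0.11, adjusted p = 0.00018).

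Few genes of cytosolic ribosomal proteins changed. Of 58, 2 rose and 7 fell, and the median was -0.05. The falls numbered 17 without oncogenic Vav1 replicate 3, 2 without oncogenic Vav1 replicate 2 and 1 without any other single array, and 20 after another quantile normalization. The rises numbered 1 without GFP replicate 1, GFP replicate 2 or oncogenic Vav1 replicate 1. Rps27l (0.95, SE 0.13), a relative of Rps27 that is also a p53 target, rose, and Rpl10a (-0.05, SE 0.10) did not pass. Of the 76 mitochondrial ribosomal protein genes 42 rose and none fell (median 0.41), or 18 without GFP replicate 1. Mrpl27 (1.07, SE 0.13), Mrpl20 (1.04, SE 0.16) and Mrps7 (1.00, SE 0.15) led them, while Mrpl1 (-0.16, SE 0.14) did not pass. The difference between the lists themselves was not tested.

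The respiratory chain and ATP synthase, which make ATP at the inner mitochondrial membrane, were represented by 80 tested genes, of which 60 rose and 1 fell (median 0.58). Ndufb9 read 8.59 and 8.89 on the GFP arrays and 9.91, 9.96, 9.81 and 9.87 on the oncogenic Vav1 arrays. Atp5g1 read 8.77 and 8.74 on the GFP arrays and 10.11, 9.91, 9.81 and 9.81 on the oncogenic Vav1 arrays. Each of these genes, of complex I and of the ATP synthase, was higher on all 4 oncogenic Vav1 arrays (Ndufb9 log2 difference 1.15, SE 0.11, adjusted p = 2.5e-05, Atp5g1 log2 difference 1.15, SE 0.11, adjusted p = 2.6e-05). Ndufc1 (1.46, SE 0.19), Atp5md (1.13, SE 0.12) and Ndufb6 (1.12, SE 0.17) rose, as did Atp5a1 (0.61, SE 0.11), a subunit of the head of the ATP synthase. The single fall was absent without GFP replicate 1. Genes of the citrate cycle and pyruvate dehydrogenase showed 12 rises and 1 fall among 23 (median 0.30; 7 rises without GFP replicate 1). Idh3a (1.04, SE 0.15), Sdhd (0.90, SE 0.17), Sdhb (0.82, SE 0.12), Mdh2 (0.72, SE 0.12) and citrate synthase, Cs (0.63, SE 0.12), rose. Pdk4 read 7.14 and 6.98 on the GFP arrays and 5.98, 5.98, 6.18 and 5.80 on the oncogenic Vav1 arrays. Pdk4, the kinase that switches pyruvate dehydrogenase off, fell without overlap (log2 difference -1.08, SE 0.15, adjusted p = 0.00031).

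Nucleotide, amino acid and one-carbon metabolism supply dividing cells. Of 20 purine and pyrimidine genes, 13 rose and 2 fell (median 0.66). There were 8 rises without GFP replicate 1, and 1 fall without each array other than oncogenic Vav1 replicate 3. Rrm2 read 7.38 and 7.51 on the GFP arrays and 9.80, 10.47, 9.43 and 9.61 on the oncogenic Vav1 arrays. Rrm2, the regulated subunit of ribonucleotide reductase, was highest on oncogenic Vav1 replicate 2, and the groups did not overlap (log2 difference 2.38, SE 0.23, adjusted p = 2.3e-05). Rrm1 (1.72, SE 0.16), Gart (0.93, SE 0.12), Ctps (0.82, SE 0.14) and Umps (0.80, SE 0.14) rose, while Cad (0.09, SE 0.19) did not pass. In serine, glycine and folate metabolism 7 of 11 rose and 1 fell (median 0.52; no fall without GFP replicate 1, GFP replicate 2 or oncogenic Vav1 replicate 1), led by thymidylate synthase Tyms (1.54, SE 0.21), Psat1 (1.36, SE 0.13), Mthfd2 (1.18, SE 0.15), Mthfd1 (0.94, SE 0.19) and Shmt2 (0.91, SE 0.12). The pentose phosphate list had 3 rises among 8 (median 0.26), in Taldo1 (0.86, SE 0.17), Pgd (0.85, SE 0.13) and Idh1 (0.67, SE 0.13).

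Aminoacyl-tRNA synthetases, which charge tRNAs, had 13 rises and no fall among 18 (median 0.51; 8 rises without GFP replicate 1). Wars read 8.13 and 7.79 on the GFP arrays and 9.74, 9.54, 9.15 and 9.66 on the oncogenic Vav1 arrays. The tryptophan enzyme Wars, which interferon gamma induces, rose most (log2 difference 1.57, SE 0.16, adjusted p = 4.2e-05), before Nars (0.85, SE 0.13) and Kars (0.79, SE 0.13). Among amino acid and lactate transporters 10 of 17 rose and 1 fell (median 0.71; no fall without GFP replicate 1). Slc7a5 (1.61, SE 0.17), the large neutral amino acid carrier, Slc43a3 (1.78, SE 0.20), a purine base carrier, the cystine importer Slc7a11 (1.67, SE 0.24) and the lactate exporter Slc16a3 (1.36, SE 0.19) were among the rises.

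Macrophages take up, store and release lipid. Of 19 genes of cholesterol efflux and lipid handling, 12 rose and 4 fell (median 0.65; 1 fall without GFP replicate 2). Pltp read 7.25 and 7.50 on the GFP arrays and 10.28, 10.14, 9.48 and 10.05 on the oncogenic Vav1 arrays. Nr1h3 read 7.87 and 7.66 on the GFP arrays and 10.12, 9.97, 9.49 and 9.98 on the oncogenic Vav1 arrays. Pltp, the phospholipid transfer protein, and Nr1h3, the sterol-sensing nuclear receptor LXR alpha, were each higher on all 4 oncogenic Vav1 arrays, with replicate 3 the lowest of them (Pltp log2 difference 2.61, SE 0.19, adjusted p = 4.2e-06, Nr1h3 log2 difference 2.12, SE 0.16, adjusted p = 5.9e-06). Gpnmb (2.37, SE 0.28), a glycoprotein of lipid-laden macrophages, and the lipid droplet coat gene Plin2 (1.56, SE 0.13) rose. The efflux pump gene Abca1 fell (log2 difference -0.44, SE 0.13, adjusted p = 0.021) and did not pass without GFP replicate 2 (-0.26, adjusted p = 0.2). The fat cell fatty acid carrier Fabp4 fell (-1.22, SE 0.22), opposite in sign to Fabp5.

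Cholesterol synthesis and uptake had 10 rises and no fall among 19 (median 0.39). The count was 5 without GFP replicate 1, GFP replicate 2 or oncogenic Vav1 replicate 1 and 6 without oncogenic Vav1 replicate 4. Ebp (1.07, SE 0.13), Fdps (0.96, SE 0.15), Hmgcs1 (0.77, SE 0.15) and Cyp51 (0.77, SE 0.17) kept their call without each array. The sterol element TCACNCCAC was found in 1 of 15 promoters (6.67%), that of Hmgcs1, beside 1.41% of tested genes. In fatty acid metabolism 11 of 22 rose and 2 fell (median 0.28; 7 and 1 without GFP replicate 1). The desaturases Fads1 (1.25, SE 0.14) and Fads2 (0.99, SE 0.19) and the elongase Elovl1 (0.80, SE 0.10) rose. Scd1 read 11.65 and 11.25 on the GFP arrays and 10.25, 10.00, 10.42 and 10.20 on the oncogenic Vav1 arrays. Scd1, which makes monounsaturated fatty acids, fell without overlap (log2 difference -1.23, SE 0.14, adjusted p = 6.3e-05).

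Histones package new DNA and are made in dividing cells. Of 54 histone genes, 49 rose and none fell (median 0.98; 1 fall without GFP replicate 1), among them H2bc7 (1.56, SE 0.16), H1f5 (1.52, SE 0.23), H2bc12 (1.51, SE 0.17) and H1f1 (1.53, SE 0.23). Histone genes are near-identical copies, and their probe sets may share signal. Uhrf1 read 7.29 and 8.01 on the GFP arrays and 9.58, 9.67, 9.37 and 9.39 on the oncogenic Vav1 arrays. Uhrf1, which brings the DNA methyltransferase Dnmt1 to new DNA, was lower on GFP replicate 1 than on GFP replicate 2, and both lay under all oncogenic Vav1 arrays (log2 difference 1.85, SE 0.18, adjusted p = 2.3e-05). In the DNA methylation and polycomb list 9 of 16 rose and 3 fell (median 0.48; 1 fall without GFP replicate 1), with rises in Hells (1.79, SE 0.22), Ezh2 (1.37, SE 0.12), Suv39h2 (1.15, SE 0.19), Cbx5 (0.90, SE 0.12) and Dnmt1 (0.59, SE 0.11). DNA repair had 13 rises and 1 fall among 22 (median 0.52; 2 falls without oncogenic Vav1 replicate 3). Fanci (1.58, SE 0.24), Neil3 (1.55, SE 0.25), the polymerase Polq (1.46, SE 0.18) and Brca1 (1.40, SE 0.18) rose, and Msh5 was the fall. The cell cycle element TTTGAA was in 2 of 20 promoters of this list (10.0%), under the 14.9% of tested genes.

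Lysosomal genes had 21 rises and no fall among 25, with a median of 0.82. Grn read 9.61 and 9.64 on the GFP arrays and 11.22, 11.13, 10.96 and 11.18 on the oncogenic Vav1 arrays. Gla read 5.74 and 5.99 on the GFP arrays and 7.99, 7.71, 7.10 and 7.79 on the oncogenic Vav1 arrays. Grn (progranulin) varied little within either group, while alpha-galactosidase, Gla, was lowest on oncogenic Vav1 replicate 3 within its group (Grn log2 difference 1.5, SE 0.10, adjusted p = 2.6e-06, Gla log2 difference 1.78, SE 0.22, adjusted p = 0.00011). The acid phosphatase Acp2 (1.71, SE 0.18), cathepsin C, Ctsc (1.21, SE 0.15), and Lamp1 (0.97, SE 0.13), a main protein of the lysosomal membrane, rose beside Atp6v0d2. Autophagy genes had 6 rises among 20 (median 0.14), close to the background share, and 1 without GFP replicate 1. Map1lc3b, which coats autophagosomes, rose (0.49, SE 0.10) and kept its call.

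Iron and haem handling had 10 rises and 1 fall among 19 (median 0.44; no fall without GFP replicate 1 or 2, and 2 without oncogenic Vav1 replicate 3). Slc11a1 read 8.28 and 8.36 on the GFP arrays and 10.16, 9.93, 9.71 and 9.89 on the oncogenic Vav1 arrays. Slc11a1, the metal pump of phagosomes, lay apart between groups (log2 difference 1.60, SE 0.13, adjusted p = 7.5e-06), and ceruloplasmin, Cp (1.29, SE 0.16), and the biliverdin reductases Blvrb (1.26, SE 0.24) and Blvra (0.87, SE 0.15) rose. The haem oxygenase gene Hmox1 did not pass (0.43, SE 0.18), though it did without oncogenic Vav1 replicate 4 (0.56, adjusted p = 0.025). In haem synthesis 3 of 11 rose, or 27.3% beside 24.7% of all genes. The median of 0.42 was 0.10 without GFP replicate 1, 0.84 without GFP replicate 2, 0.19 without oncogenic Vav1 replicate 2 and -0.08 with the intronic covariate. The housekeeping first enzyme Alas1 (1.26, SE 0.16) rose, while the erythroid enzyme Alas2 (0.16, SE 0.36) did not pass.

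Antioxidant genes showed 17 rises and no fall among 22 (median 0.67). Gsr read 8.20 and 8.19 on the GFP arrays and 10.04, 9.96, 9.55 and 9.85 on the oncogenic Vav1 arrays. Txn1 read 10.39 and 10.56 on the GFP arrays and 11.98, 11.92, 11.73 and 11.96 on the oncogenic Vav1 arrays. Glutathione reductase, Gsr, and thioredoxin, Txn1, were higher on every oncogenic Vav1 array (log2 difference 1.65, SE 0.14, adjusted p = 9.2e-06, and log2 difference 1.43, SE 0.10, adjusted p = 3.4e-06). Peroxiredoxins Prdx3 (1.51, SE 0.17) and Prdx2 (1.36, SE 0.26) and the secreted superoxide dismutase Sod3 (1.47, SE 0.14) rose. The antioxidant element TGACNNNGC was in 7 of 19 promoters (36.8%) beside 16.6% of tested genes, and 4 of the 7 genes rose, while 15 of the 19 members with a promoter rose. Of 12 metallothionein and acute phase genes 6 rose and 1 fell (median 0.47; no fall without GFP replicate 1 or oncogenic Vav1 replicate 1, and 2 without oncogenic Vav1 replicate 4), with Mt1 (1.71, SE 0.17), Mt2 (1.36, SE 0.26), haptoglobin, Hp (1.21, SE 0.14), and Serpina3n (1.10, SE 0.17) beside Serpina3f.

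Innate sensors had 15 rises and 1 fall among 26 (median 0.72; no fall without GFP replicate 1, 2 without oncogenic Vav1 replicate 3). Tlr12 (1.66, SE 0.17), Tlr13 (1.40, SE 0.14), the myeloid lectin Clec5a (1.60, SE 0.25), the nucleic acid sensors Zbp1 (1.27, SE 0.13) and Ifih1 (1.23, SE 0.17) rose most. The inflammasome and interleukin 1 list had 14 rises and no fall among 21 (median 0.70). Il1b read 6.51 and 6.17 on the GFP arrays and 8.55, 8.52, 8.54 and 8.43 on the oncogenic Vav1 arrays. Il1rn read 6.24 and 6.02 on the GFP arrays and 9.10, 8.95, 7.83 and 8.95 on the oncogenic Vav1 arrays. The cytokine Il1b was even across the oncogenic Vav1 arrays (log2 difference 2.17, SE 0.13, adjusted p = 1.2e-06), and its antagonist Il1rn was lowest on replicate 3 of them (log2 difference 2.58, SE 0.29, adjusted p = 6.7e-05). The decoy receptor Il1r2 (1.80, SE 0.25), Il1a (1.63, SE 0.25) and the interleukin 18 antagonist Il18bp (1.5, SE 0.18) also rose, so both ligands and inhibitors were among the rises.

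Of 16 other cytokine and growth factor genes 7 rose and 2 fell (median 0.17; falls between 0 without GFP replicate 2 and 3 without oncogenic Vav1 replicate 3, and 1 without each other array). Tnf (1.26, SE 0.16), the alarmin Il33 (1.59, SE 0.17), Ebi3 (1.05, SE 0.20) and Pdgfb (0.65, SE 0.13) rose. Cytokine receptors and their feedback genes had 15 rises and 3 falls among 31 (median 0.38; 1 fall without GFP replicate 2 or oncogenic Vav1 replicate 1). Pim1 (1.49, SE 0.13), Csf3r (1.40, SE 0.14), the inhibitors Socs1 (1.34, SE 0.19) and Socs3 (1.08, SE 0.18) and Il15ra (1.16, SE 0.15) rose. In the TNF superfamily 10 of 25 rose and 4 fell (median 0.30; 6 rises without GFP replicate 1), with Tnfsf15 (1.25, SE 0.11), the receptor Tnfrsf1a (1.07, SE 0.11), the death ligands Fasl (1.06, SE 0.17) and Tnfsf10 (1.03, SE 0.14) among the rises. Cd40 (-0.35, SE 0.13) did not pass, though it was lower without oncogenic Vav1 replicate 1 (-0.44, adjusted p = 0.019) and after another quantile normalization (-0.52, adjusted p = 0.0072).

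Small mediators were covered by the eicosanoid list, with 7 rises and no fall among 13 (median 0.43; 4 rises without GFP replicate 1). Pla2g4a read 6.07 and 6.67 on the GFP arrays and 9.04, 8.74, 8.13 and 8.62 on the oncogenic Vav1 arrays. Pla2g4a, which releases arachidonic acid, lay apart between groups (log2 difference 2.26, SE 0.23, adjusted p = 3.6e-05), and Ptgs2, Pla2g7 (1.58, SE 0.22) and thromboxane synthase, Tbxas1 (1.17, SE 0.12), rose too. Among 7 tested enzymes of nitric oxide, arginine, tryptophan and itaconate 2 rose, the itaconate enzyme Acod1 (2.08, SE 0.27) and the polyamine enzyme Odc1 (1.78, SE 0.21), and Kmo (-0.87, SE 0.16) fell (median 0.34). Nos2 was too low to be tested.

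Complement and coagulation genes had 13 rises and 2 falls among 25 (median 0.87). Cfb read 7.38 and 7.73 on the GFP arrays and 10.25, 10.05, 9.45 and 10.10 on the oncogenic Vav1 arrays. C4b read 7.78 and 7.76 on the GFP arrays and 9.93, 9.78, 9.53 and 9.83 on the oncogenic Vav1 arrays. Procr read 5.51 and 5.53 on the GFP arrays and 7.81, 7.71, 7.18 and 7.82 on the oncogenic Vav1 arrays. Factor B, C4b and the protein C receptor Procr each lay apart between groups, and Procr was near background on the GFP arrays (Cfb log2 difference 2.41, SE 0.20, adjusted p = 9.1e-06, C4b log2 difference 1.99, SE 0.12, adjusted p = 1.4e-06, Procr log2 difference 2.11, SE 0.19, adjusted p = 1.4e-05). The urokinase gene Plau (2.23, SE 0.25), the complement inhibitor Cd59a (1.85, SE 0.17) and C1ra (1.47, SE 0.15) rose. Scavenger and phagocytic receptors had 9 rises and 5 falls among 23 (median 0.30; 3 falls without GFP replicate 1 or 2). Msr1 read 5.75 and 5.80 on the GFP arrays and 8.96, 8.57, 7.59 and 8.47 on the oncogenic Vav1 arrays. The scavenger receptor Msr1 ranged over more than 1 log2 unit among the oncogenic Vav1 arrays, lowest on replicate 3 (log2 difference 2.62, SE 0.28, adjusted p = 5.2e-05). The macrophage protein Cd5l (2.03, SE 0.15), Lilrb4a (1.59, SE 0.12) and Clec12a (1.56, SE 0.13) rose, while Mrc1 (0.03, SE 0.33) did not pass and was highest on oncogenic Vav1 replicate 3 (8.63 against 7.05 to 7.68 on the rest of its group).

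Adhesion and matrix genes split by family. Integrins had 10 rises and 4 falls among 22 (median 0.32; 6 rises without GFP replicate 2, and 2 and 1 falls without GFP replicates 1 and 2), with the myeloid chains Itgam (1.67, SE 0.14), Itgax (1.45, SE 0.23) and Itgb2 (0.88, SE 0.11) rising. Collagens had 1 rise and 11 falls among 33 (median -0.32). The falls numbered 5 without GFP replicate 1 or 2, 6 without oncogenic Vav1 replicate 1 and 7 without replicate 2, and the rise was lost without each array but oncogenic Vav1 replicate 3. Beside Col6a4, Col27a1 (-0.72, SE 0.15) and Col22a1 (-0.58, SE 0.13) kept their call. Other matrix genes had 4 rises and 4 falls among 22 (median -0.22; 2 falls without GFP replicate 1 or 2). Sparc read 9.13 and 9.24 on the GFP arrays and 10.70, 10.57, 10.27 and 10.59 on the oncogenic Vav1 arrays. Sparc, a collagen-binding matrix protein, was higher on all 4 oncogenic Vav1 arrays (log2 difference 1.35, SE 0.12, adjusted p = 1.8e-05), as was the proteoglycan Bgn (0.80, SE 0.11), and Fn1 (-0.23, SE 0.13) passed only after another quantile normalization (-0.37, adjusted p = 0.031).

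Matrix proteases and inhibitors had 8 rises and 1 fall among 18 (median 0.41). Mmp14 (2.00, SE 0.25), the stromelysin Mmp3 (1.74, SE 0.19), Htra1 (1.5, SE 0.18) and Mmp2 (0.74, SE 0.15) rose beside Adamdec1. Mmp2 did not pass in the fit over all 10 arrays (adjusted p = 0.052). Mmp12 read 6.76 and 6.60 on the GFP arrays and 4.61, 5.46, 5.40 and 5.50 on the oncogenic Vav1 arrays. The macrophage elastase Mmp12 fell and was near background on the oncogenic Vav1 arrays (log2 difference -1.44, SE 0.24, adjusted p = 0.00085). S100 proteins, annexins and galectins had 14 rises and no fall among 18 (median 0.71), including Anxa4 (2.32, SE 0.20), Anxa1 (1.35, SE 0.16), Lgals3 (1.82, SE 0.16) and Lgals1 (1.63, SE 0.14). S100a8 and S100a9 were kept out of this list, but Anxa1 and S100a6 are also on the list of neutrophil genes.

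Signalling genes close to Vav1 were mixed. Calcium and NFAT genes had 3 rises and 5 falls among 22 (median -0.17; 1 rise without GFP replicate 1 or oncogenic Vav1 replicate 1, 2 or 4, and 9 falls without oncogenic Vav1 replicate 3). The NFAT target Rcan1 rose (0.89, SE 0.15), Itpr2 (-0.74, SE 0.10), the calcineurin subunit Ppp3cc (-0.60, SE 0.11) and Nfatc3 (-0.57, SE 0.11) fell, and Plcg1 (-0.37, SE 0.15) did not pass. Without oncogenic Vav1 replicate 3, Plcg1 did pass (-0.48, adjusted p = 0.0041).

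The Ras and MAP kinase list had 7 rises and 6 falls among 28 (median 0.04, and -0.13 after another quantile normalization). The rises numbered 2 without oncogenic Vav1 replicate 1 or 2, 3 without GFP replicate 1 and 4 without GFP replicate 2. Dusp1 (1.02, SE 0.13), a phosphatase that ends MAP kinase signalling, rose, and Map2k6 (-1.35, SE 0.26) and Rasgrp2 (-0.90, SE 0.11) fell. In the PI3 kinase, mTOR and FOXO list 3 rose and 8 fell among 25 (median -0.13; 5 falls without each array but oncogenic Vav1 replicate 3). Sesn1 (-1.18, SE 0.14) and the lipid phosphatase Inpp4b (-0.99, SE 0.11) fell, and Pik3cb (0.93, SE 0.12) and Akt1 (0.80, SE 0.12) rose. TGF beta and BMP genes had 5 rises and 2 falls among 24 (median -0.10; 1 fall without each array but GFP replicate 2). The BMP receptor Bmpr1a was near background on the GFP arrays and rose (2.51, SE 0.27), as did Tgfbi (1.42, SE 0.15) and Id2 (1.01, SE 0.10). Wnt genes had 4 rises and 3 falls among 20 (median -0.11; falls between 0 without GFP replicate 2 and 5 without oncogenic Vav1 replicate 3, and 1 without GFP replicate 1 or oncogenic Vav1 replicate 1 or 2), with Dkk3 (1.84, SE 0.13), Fzd7 (1.65, SE 0.21) and Tcf7l2 (1.26, SE 0.16) rising.

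Among apoptosis genes 8 of 24 rose and 3 fell (median -0.05; 4 rises without GFP replicate 1 or 2, and 1 fall without GFP replicate 1). After another quantile normalization 7 rose and 10 fell (median -0.22). Mlkl (1.44, SE 0.14), the effector of necroptosis, and cytochrome c, Cycs (0.90, SE 0.10), rose. Hypoxia genes had 7 rises and no fall among 18 (median 0.25; 4 rises without GFP replicate 1, 2 falls without oncogenic Vav1 replicate 3), with Hif1a (1.09, SE 0.15) rising. Clock genes had 5 rises and no fall among 17 (median -0.08; 1 fall without oncogenic Vav1 replicate 1 or 4), and Rora (1.68, SE 0.21) led them. Of 36 transcription factors of blood cells 14 rose and 7 fell (median 0.36; 8 rises without GFP replicate 2, 2 falls without GFP replicate 1). Irf7 (1.62, SE 0.17), Batf (1.12, SE 0.12) and Mitf (0.92, SE 0.14) rose. The Gimap and Schlafen families had 4 rises and 2 falls among 16 (median 0.11, and -0.04 after another quantile normalization; 2 rises and 4 falls without GFP replicate 1, 5 falls without oncogenic Vav1 replicate 3). The Schlafen genes Slfn4 (2.12, SE 0.19) and Slfn3 (1.29, SE 0.21) rose, and the lymphocyte GTPases Gimap1 (-0.60, SE 0.11) and Gimap8 (-0.59, SE 0.12) fell.

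Signals of the B cell receptor drive B cells to divide and mature. Of 18 genes of B cell receptor signalling 13 fell and 2 rose (median -0.51; 1 rise without GFP replicate 1 or oncogenic Vav1 replicate 1). Ralgps2 read 11.23 and 11.11 on the GFP arrays and 9.86, 9.52, 9.97 and 9.87 on the oncogenic Vav1 arrays. Bank1 read 12.18 and 12.16 on the GFP arrays and 11.16, 11.05, 11.38 and 11.23 on the oncogenic Vav1 arrays. Both lay apart between groups, highest on GFP (Ralgps2 log2 difference -1.37, SE 0.13, adjusted p = 1.8e-05, Bank1 log2 difference -0.97, SE 0.10, adjusted p = 4.2e-05). Siglecg (-1.24, SE 0.21), an inhibitory lectin, and Vpreb3 (-1.01, SE 0.18) fell. Of the 10 B cell markers 9 fell (median -1.01), and their mean log2 level was 10.80 to 10.90 on the GFP and 9.66 to 10.04 on the oncogenic Vav1 arrays. Ebf1 (-1.52, SE 0.11), Pax5 (-1.11, SE 0.15) and Ms4a1 (-1.04, SE 0.14) were among them. Plasma cell markers had 5 rises and 1 fall among 7 (median 0.54; 3 rises without GFP replicate 2, no fall without GFP replicate 1 or 2), with mean levels of 7.69 on both GFP arrays and 8.01 to 8.18 with oncogenic Vav1, and Prdm1 (1.41, SE 0.23) rose.

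Monocyte markers had 6 rises and 1 fall among 9 (median 0.81; no fall without GFP replicate 2), and their mean level was 8.24 to 8.25 on the GFP and 9.06 to 9.18 on the oncogenic Vav1 arrays. Chil3 read 4.37 and 4.57 on the GFP arrays and 7.92, 7.81, 7.86 and 7.86 on the oncogenic Vav1 arrays. Ccr2 read 6.94 and 6.98 on the GFP arrays and 8.34, 8.39, 8.51 and 8.23 on the oncogenic Vav1 arrays. The lectin Chil3 and the receptor Ccr2 of inflammatory monocytes varied little within groups and lay apart, with Chil3 near background on the GFP arrays (Chil3 log2 difference 3.39, SE 0.14, adjusted p = 4.2e-08, Ccr2 log2 difference 1.41, SE 0.12, adjusted p = 1.3e-05). Ly6c2 (1.20, SE 0.12) rose. Progenitor markers had 4 rises and no fall among 10 (median 0.29; mean level 6.26 to 6.32 and 6.91 to 7.32). The rises were in genes of myeloid precursors, Mpo (2.81, SE 0.18), Elane (2.13, SE 0.15), Ctsg (2.02, SE 0.23) and Ms4a3 (1.71, SE 0.25). All 4 are also on the list of neutrophil genes, so they are not a result apart from it. Kit (0.30, SE 0.13) did not pass.

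Red pulp and marginal zone macrophage markers had 4 rises and 4 falls among 11 (median 0.04, and -0.06 after another quantile normalization; 1 fall without GFP replicate 1 or 2). Cd5l, Vcam1 (1.37, SE 0.11) and the red pulp factor Spic (0.79, SE 0.12) rose. Marco, of the marginal zone, fell (log2 difference -1.01, SE 0.24, adjusted p = 0.0064), but not without GFP replicate 2 (-0.92, adjusted p = 0.064). Dendritic cell markers had 3 rises and 2 falls among 11 (median -0.23), with Xcr1 (1.27, SE 0.20) and Bst2 (1.5, SE 0.16) rising and Siglech (-1.67, SE 0.25), of plasmacytoid cells, falling. NK cell markers had 1 rise, Eomes (2.58, SE 0.25), and 2 falls, Ncr1 (-1.16, SE 0.24) and Klrb1c (-1.11, SE 0.17), among 8 (median -0.20). Klrb1c was near background on the oncogenic Vav1 arrays, and the NK cell falls numbered 0 with the filter at the 60th percentile. Mast cell and basophil markers had 2 rises among 7 (median 0.41; 1 without GFP replicate 2), and eosinophil markers 1 rise and 1 fall among 3 (median 0.21; -0.04 without oncogenic Vav1 replicate 3; the fall was lost without each array but oncogenic Vav1 replicate 3).

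The spleen of the mouse makes red cells under demand. Of 10 red cell markers 8 rose and none fell (median 1.01), while 0 passed without GFP replicate 1 or in the fit over all 10 arrays. The median was 0.59 without GFP replicate 1, 1.61 without GFP replicate 2 and -0.27 with the intronic covariate. Their mean level was 7.02 on GFP replicate 1 and 8.25 on GFP replicate 2, and 8.43, 9.73, 8.72 and 8.39 on the oncogenic Vav1 arrays. Rhag read 5.41 and 7.63 on the GFP arrays and 8.46, 10.32, 8.54 and 8.29 on the oncogenic Vav1 arrays. The blood group glycoprotein Rhag was lowest on GFP replicate 1 and highest on oncogenic Vav1 replicate 2, and its rise (log2 difference 2.38, SE 0.60, adjusted p = 0.0095) did not pass without GFP replicate 1 (1.27, adjusted p = 0.17) or in the fit over all 10 arrays (2.38, adjusted p = 0.062). It took the other sign with the intronic covariate (-0.38, adjusted p = 0.92). Megakaryocyte markers had 1 rise among 9 (median 0.27), lost without each array but oncogenic Vav1 replicate 4.

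Among markers of cells other than blood cells, fat cell markers had 4 falls and no rise among 6 tested (median -1.0). The 3 tested mesothelial markers fell (median -0.55; 0 without GFP replicate 1 and 1 without GFP replicate 2). Splenic stroma had 2 rises and 2 falls among 14 (median -0.11; 1 fall without GFP replicate 1 or 2), the marginal sinus adhesion gene Madcam1 (1.44, SE 0.16) rising and Pdgfrb (0.05, SE 0.13) not passing. Endothelium had 2 rises and 2 falls among 10 (median 0.02, and -0.07 after another quantile normalization; 1 rise without GFP replicate 2 or oncogenic Vav1 replicate 1, 1 fall without GFP replicate 1 or 2), with Pecam1 (-0.91, SE 0.13) falling. By limma none of the 6 muscle or 10 pancreas markers passed (medians -0.26 and -0.07), with 0 muscle and 1 pancreas markers at an unadjusted p under 0.05. Without GFP replicate 1, 1 muscle marker fell, and 1 pancreas marker rose without GFP replicate 2 or oncogenic Vav1 replicate 2. Of the 3 Y-linked genes 2 fell (median -1.42; none without GFP replicate 1 or 2, 1 without oncogenic Vav1 replicate 1 and 3 without oncogenic Vav1 replicate 3).

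**Figure D4:**
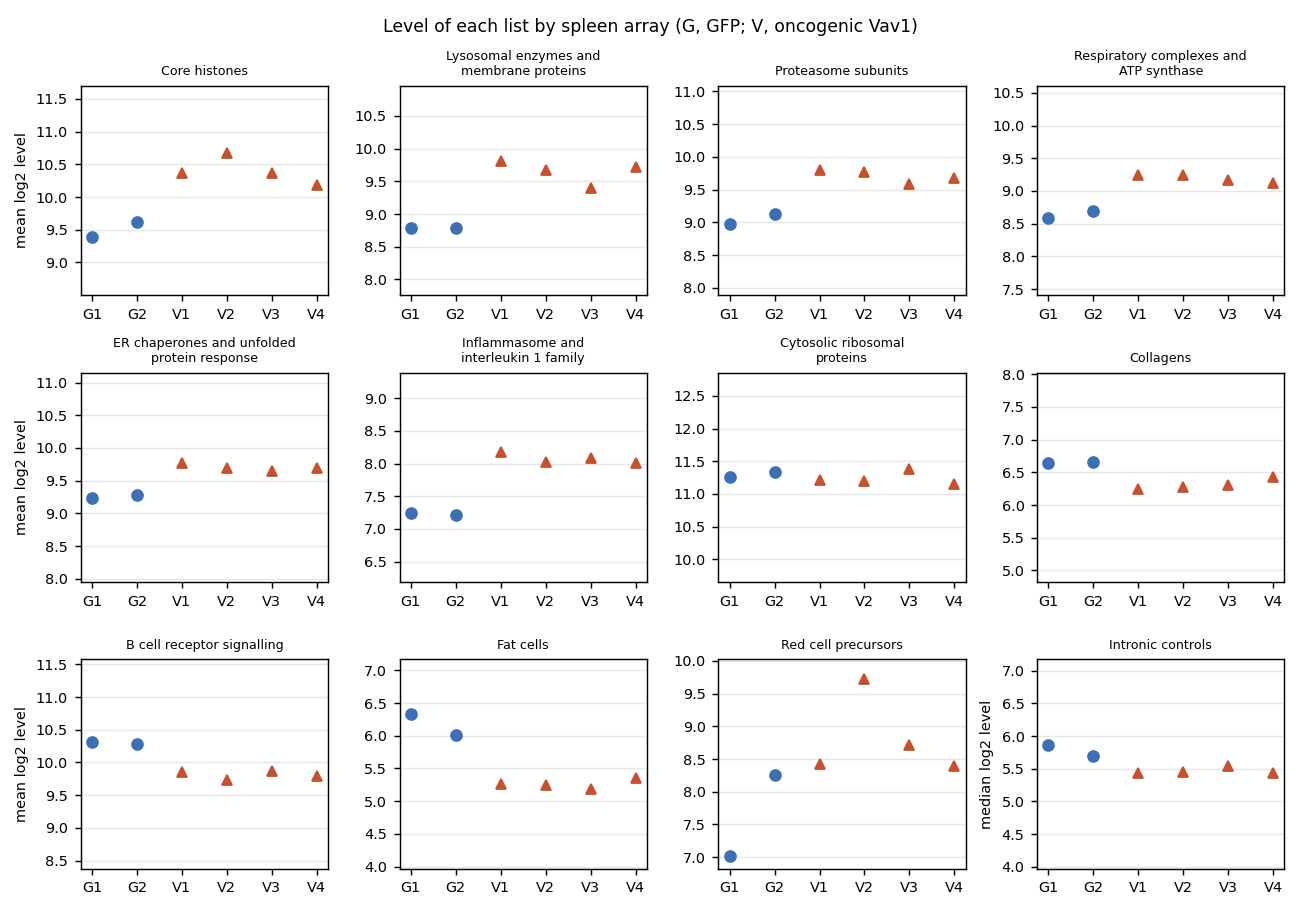
Each panel gives the mean log2 level of the members of a list that have a probe set, or the median of the intronic controls, on the 2 GFP arrays (G1, G2, circles) and the 4 oncogenic Vav1 arrays (V1 to V4, triangles), with axes of equal height. Red cell precursors are the list in which GFP replicate 1 stands apart (7.02), and the intronic controls are lower on all 4 oncogenic Vav1 arrays.

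The spleen difference was set against that in the lymph node by an interaction test over all 10 arrays, in which 1077 of 13393 genes tested over those arrays passed (8.04%). This count ranged from 384 without GFP lymph node replicate 1 to 4201 without oncogenic Vav1 lymph node replicate 1. Of the respiratory genes 57 of 81 had a higher difference in spleen (22 to 69 without single arrays). Their median difference was 0.58 in spleen and -0.40 in lymph node. Of the citrate cycle genes 18 of 23 had a higher difference in spleen (7 to 19 without single arrays; medians 0.30 and -0.62), and of the fatty acid genes 16 of 22 (13 to 17; 0.28 and -1.34). For both the respiratory and the citrate cycle list the lowest count was that without GFP lymph node replicate 1.

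Fat cell markers moved with these lists in the lymph node. The mean level of the markers with a probe set was 10.89 and 10.93 on the GFP and 7.15 and 8.23 on the oncogenic Vav1 arrays, beside 5.19 to 6.34 on the spleen arrays. The part of fat tissue in the difference between tissues was not tested. Of the core histones, none of 55 differed by limma (6 at an unadjusted p under 0.05, medians 0.98 in spleen and 1.44 in lymph node), though 46 were lower in spleen without oncogenic Vav1 lymph node replicate 1. Of the ER chaperones 2 of 24 had a higher difference in spleen (0 to 4 without single arrays, and 0 to 3 a lower one), and of the proteasome subunits 5 of 32 (0 to 11 without single arrays).

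**Figure D5:**
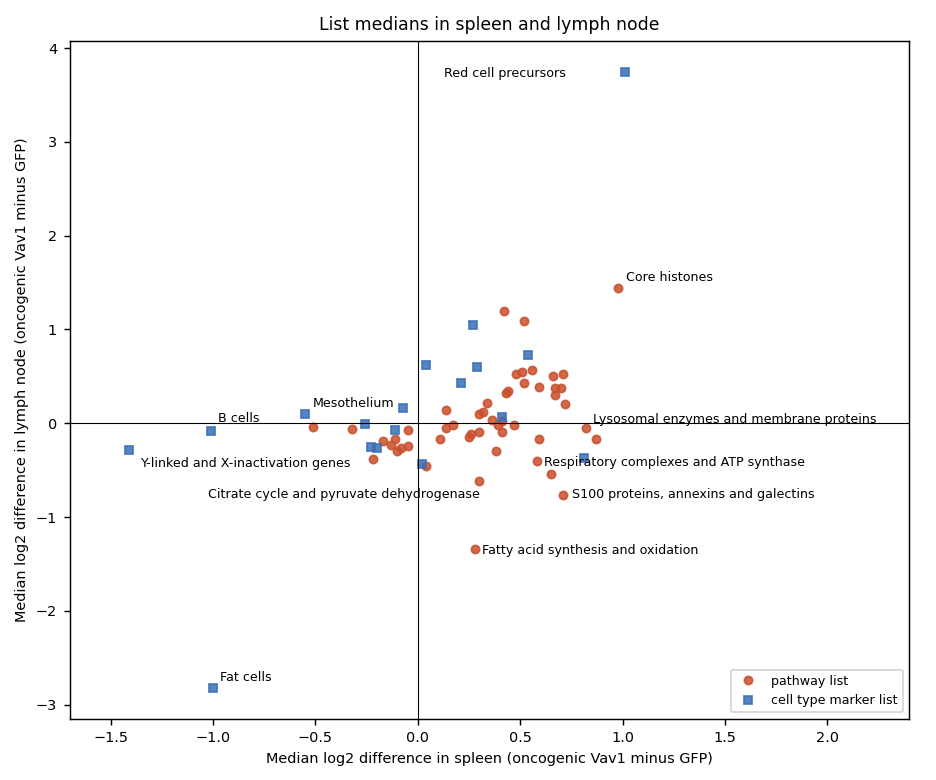
Each point is a list, placed by its median log2 difference between oncogenic Vav1 and GFP in spleen (x axis) and in lymph node (y axis), with circles for pathways and squares for cell type markers. Fat cells lie at -1.0 and -2.82 and red cell precursors at 1.01 and 3.75, while the respiratory list has opposite signs in the tissues.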

How the data were processed

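RNA of 10 mouse samples was read on 1-colour Affymetrix arrays. Per the submitters' processing notes, the authors normalized the values with RMA in R 3.6.3, which gives log2 levels. The genome build and annotation are not given in the sources used here. The deposited log2 values were used as they stand. Of 29129 probe sets, 19572 had 1 gene symbol, which gave 19505 genes, with the probe set of the highest mean for the 55 genes that have several. Tests were run on genes whose value exceeded the 40th percentile of the array (5.64 to 5.84) on 2 or more of the 6 spleen arrays.

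The 2 GFP and 4 oncogenic Vav1 spleen arrays, each of another animal per the labels, were compared with limma 3.58.1 (lmFit, and eBayes with a trend) under R 4.3.3, two-sided, with Benjamini-Hochberg adjustment over the 12895 genes tested. The difference between spleen and lymph node was an interaction term over all 10 arrays, with the animal as a random block (statmod 1.5.0). Per the labels 3 of the 7 animals gave both tissues. Among them is ONCO3, whose Y-linked levels differed between its arrays as given above. The scripts were tested on simulated data. The precision is limited by the number of arrays.

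Genes were named from a rule. It took the 15 largest rises and falls whose groups do not overlap, and Vav1. From each list it took the first member and up to 5 changed members of largest difference. Not every gene of the rule is described above. First members left out include Cars (0.45, SE 0.17) and Pgls (-0.20, SE 0.11), which did not pass. Fasn (0.55, SE 0.20, adjusted p = 0.049 by limma), whose groups overlap, and Ciita (-0.37, SE 0.11), which fell, were also left out. These genes are not counted among the genes named. T cell, neutrophil, chemokine and Fc gamma receptor genes and predicted genes were left out of the 15. The lists and genes were chosen with earlier results of these data known. Alternatives covered the filter, the normalization, the variance model, array weights, the arrays in the fit, probe set averaging, a replicate block, the intronic control level and each array left out. A pathway list and its genes are not reported here. Promoter sequences are those of RefSeq for GRCm38.p6, matched by symbol.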

Additional observations from a re-analysis of the deposited data

Results flagged for a closer look

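The following named genes had a spleen difference that departed from their lymph node difference by the interaction test of limma over all 10 arrays (spleen minus lymph node, on the log2 scale). Most genes were named for a large spleen difference, and the same spleen values enter this test. How often named genes pass can therefore not be set against the 8.04% over all genes. Among genes of mitochondria and energy use, this difference of differences was 1.94 for Idh3a, 1.90 for Ndufb9, 1.88 for Pdk4, 1.87 for Ndufc1, 1.72 for Ndufb6, 1.65 for Sdhb, 1.41 for Mrpl27, 1.27 for Atp5md, 1.26 for Cs, 1.15 for Sdhd, 1.11 for Mdh2, 1.10 for Cycs and 0.84 for Atp5a1. The lymph node differences of these genes ran from -2.97 (Pdk4) to -0.15 (Atp5md), and the adjusted p by limma from 0.00049 (Ndufb9) to 0.038 (Sdhd). Among genes of lipid, sugar and haem metabolism, this difference of differences was 3.12 for Pltp, 2.68 for Plin2, 2.55 for Fabp5, 2.04 for Alas1, 1.82 for Idh1, 1.43 for Hmgcs1, 1.17 for Pgd, 1.07 for Fads1, 0.97 for Ebp, 0.93 for Scd1, 0.86 for Abca1 and -3.65 for Alas2. The lymph node differences of these genes ran from -2.14 (Scd1) to 3.73 (Alas2), and the adjusted p by limma from 0.00015 (Plin2) to 0.045 (Fabp5). Among matrix, protease and complement genes, this difference of differences was 2.49 for Sparc, 2.47 for Procr, 2.34 for Mmp2, 2.22 for C1ra, 1.85 for Mmp3, 1.81 for Tgfbi and 1.15 for Fn1. The lymph node differences of these genes ran from -1.59 (Mmp2) to -0.13 (Mmp3), and the adjusted p by limma from 0.00033 (Sparc) to 0.05 (Procr). Among genes of myeloid cells and cytokines, this difference of differences was 3.08 for Lgals1, 2.84 for Ms4a6d, 1.82 for Ly6c2, 1.77 for Ccr2, 1.72 for Tnfsf10, 1.59 for Il15ra, 1.54 for Xcr1, 1.53 for Il33, 1.51 for Itgam, 1.46 for Anxa1 and 1.04 for Il1b. The lymph node differences of these genes ran from -1.45 (Lgals1) to 1.13 (Il1b), and the adjusted p by limma from 0.00047 (Ccr2) to 0.046 (Itgam). Among B cell genes, this difference of differences was -0.75 for Ebf1, -0.83 for Ralgps2, -0.95 for Bank1, -1.15 for Ms4a1 and -1.87 for Cr2. The lymph node differences of these genes ran from -0.77 (Ebf1) to 0.11 (Ms4a1), and the adjusted p by limma from 0.0057 (Cr2) to 0.038 (Ebf1). Among other genes, this difference of differences was 4.00 for Hp, 2.60 for Serpina3n, 2.35 for Sod3, 2.34 for Mt1, 2.17 for Bmpr1a, 2.04 for Dusp1, 1.54 for Gla, 1.29 for Tcf7l2, 0.88 for Txn1, 0.86 for Id2, 0.85 for Psmb6, 0.74 for Pdia3 and -1.06 for Msh5. The lymph node differences of these genes ran from -2.77 (Hp) to 0.55 (Txn1), and the adjusted p by limma from 3e-05 (Hp) to 0.042 (Id2). How many genes pass this test depends on single lymph node arrays, as given above, and fat cell markers in the lymph node moved with it.

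Single oncogenic Vav1 arrays stood far from the other 3 arrays of the group by Dixon's test, which by chance marks about 1 in 20 groups. The test was run on the named genes only, most of them chosen for a large spleen difference. How many were marked can therefore not be set against that rate. Oncogenic Vav1 replicate 3 was far below the rest at 11.39 for Atp5a1 (11.64 to 11.66 on the rest of the group), 8.90 for Clec12a (9.20 to 9.26 on the rest of the group), 5.95 for Ctsg (6.70 to 6.82 on the rest of the group), 8.00 for Ebp (8.25 to 8.29 on the rest of the group), 8.39 for Hp (8.77 to 8.82 on the rest of the group), 8.80 for Idh1 (9.08 to 9.12 on the rest of the group), 8.91 for Idh3a (9.22 to 9.25 on the rest of the group), 7.07 for Il1r2 (7.52 to 7.56 on the rest of the group), 7.83 for Il1rn (8.95 to 9.10 on the rest of the group), 4.97 for Kdm5d (7.04 to 7.07 on the rest of the group), 9.57 for Mdh2 (9.83 to 9.84 on the rest of the group), 7.62 for Mmp14 (8.44 to 8.57 on the rest of the group), 9.31 for Pgd (9.55 to 9.58 on the rest of the group) and 7.18 for Procr (7.71 to 7.82 on the rest of the group). Oncogenic Vav1 replicate 1 was far above the rest at 9.77 for Batf (9.45 to 9.48 on the rest of the group), 9.86 for Psma7 (9.73 to 9.75 on the rest of the group) and 10.39 for Psmb9 (10.20 to 10.21 on the rest of the group). Oncogenic Vav1 replicate 1 was far below the rest at 4.61 for Mmp12 (5.40 to 5.50 on the rest of the group). Oncogenic Vav1 replicate 2 was far above the rest at 6.96 for Fabp4 (6.42 to 6.50 on the rest of the group), 8.11 for Fads1 (7.76 to 7.79 on the rest of the group), 5.22 for Klrb1c (4.99 to 5.02 on the rest of the group), 9.00 for Mrpl20 (8.51 to 8.55 on the rest of the group), 10.76 for Mt1 (10.07 to 10.18 on the rest of the group), 10.89 for Pim1 (10.45 to 10.53 on the rest of the group) and 10.32 for Rhag (8.29 to 8.54 on the rest of the group). Oncogenic Vav1 replicate 2 was far below the rest at 9.35 for Gimap8 (9.52 to 9.53 on the rest of the group). Oncogenic Vav1 replicate 4 was far above the rest at 7.93 for Col22a1 (7.63 to 7.66 on the rest of the group) and 8.56 for Tnfrsf1a (8.44 to 8.46 on the rest of the group). Oncogenic Vav1 replicate 4 was far below the rest at 8.50 for Adamdec1 (8.69 to 8.72 on the rest of the group), 6.60 for Prdm1 (7.05 to 7.06 on the rest of the group) and 9.60 for Psmb6 (9.80 to 9.83 on the rest of the group). The GFP group, with 2 arrays, could not be tested in this way.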

How the results depend on the processing

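The count of 5040 changed genes (3188 rises and 1852 falls) was 4457 to 5394 with no filter or a filter at the 60th percentile, another quantile normalization, median centring, no variance trend, array weights or the mean of a gene's probe sets, and 3608 with the spread pooled over all 10 arrays. Quantile normalization alone moved 1 direction by over 1.5 times, to 2876 falls. A fold of at least 1.5 left 2700 genes (2019 rises and 681 falls). The intronic control level as a covariate left 114 (97 rises and 17 falls) with 3 residual degrees of freedom, and turned the sign of Pdia6 (-0.14) and Rhag (-0.38) and of 11 of 70 list medians (red cell markers 1.01 to -0.27, haem synthesis 0.42 to -0.08, and pentose phosphate, dendritic cell and NK cell lists among them). The cause was not tested. Without single spleen arrays the count ranged from 2881 to 5402, its rises from 2023 to 3359 and its falls from 858 to 2043. The replicate number of the titles as a replicate block gave 5553 changed genes. Same-numbered arrays of both groups correlated at 0.04 and 0.31 in their deviations, and arrays of unlike number at -0.31 and -0.04. The deviations of 2 GFP arrays from their mean mirror each other, so these values cannot decide on pairing. The numbers were not taken as pairs. The difference between spleen and lymph node had 1077 genes, 1042 to 1235 with no animal block, no filter, no trend or a replicate block, and 384 to 4201 without single arrays. Of the genes named, 4 lost their call in the fit over all 10 arrays (Vav1, Syvn1, Mmp2 and Rhag), 5 without GFP replicate 1 (Vav1, Kdm5d, Syvn1, Hsp90b1 and Rhag) and 3 without GFP replicate 2 (Kdm5d, Abca1 and Marco). Another quantile normalization took the call from 2 of the genes named (Vav1 and Hsp90b1). With the intronic control level as a covariate, 223 of the 265 named genes tested lost their call, beside the 2 that turned sign. With 2 GFP arrays and 6610 genes too low to test, changes of low genes are poorly resolved.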
